A study of Mus musculus with 12 samples.

Results

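Efferocytosis, the clearance of dying cells by other cells, was followed in mouse kidney through 10 genes that encode its receptors and bridging proteins. Their probes were found by gene name, and no measured value entered that rule. The genes themselves were chosen with earlier results of these data known. They are the bridging proteins Gas6, Pros1 and Mfge8, the receptor tyrosine kinases Tyro3, Axl and Mertk, and the receptors Timd4, Stab1, Stab2 and Megf10. They are 10 of 37074 genes and transcripts with probes on the array, and 19 probes carry their names. Signal stood well above background on 3 or more of the 12 arrays for 14 of these probes, from 8 genes, and these entered the tests, beside 25930 genes in all. Timd4 and Megf10 did not.

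RNA from kidneys of male mice on a C57 background was labelled with Cy3 and hybridised to one-colour Agilent arrays, which report the amount of each RNA as the brightness of its probe. There were 4 groups of 3 arrays. They were Jaml knockout (KO) mice at 24 h after ischemia-reperfusion injury (IRI), KO mice after a sham operation, wild-type (WT) mice at 24 h after IRI, and WT mice after a sham operation. For IRI the flow to the kidneys was stopped on both sides and released again, and the sources give different times of closure. The product of Jaml is an adhesion protein known from leukocytes. The 3 samples of a group were described as independent. The sources used here do not say how the knockout was made.

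Dying cells expose phosphatidylserine on their outer membrane. Gas6 and Pros1 bind it and bring it to the TAM receptors, which are Tyro3, Axl and Mertk, while Mfge8 links it to integrins that bind vitronectin. Timd4, Stab1 and Stab2 bind phosphatidylserine directly. In injured kidney both macrophages and surviving tubule cells take up dead cells, and the tubule cells do so with the receptor Havcr1, also called KIM-1.

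All levels below are log2 signals minus the 75th percentile of the array. A level is set only against the same probe on other arrays. Changes are differences of group means on this log2 scale, with their standard errors from limma's fit across all 12 arrays and p-values adjusted by Benjamini-Hochberg over all 25930 genes, with a threshold of 0.05. Jaml itself had levels of -1.89, -2.70 and -3.0 in KO IRI, -3.54, -2.59 and -3.18 in KO sham, 0.55, -1.80 and -1.64 in WT IRI, and -0.26, -0.26 and -0.44 in WT sham kidneys. It was lower in KO than in WT on every array of either treatment. The difference passed for the sham kidneys, at -2.79 ± 0.55 (SE, n = 3 each, limma adjusted p = 0.0153), and did not for the IRI kidneys, at -1.57 ± 0.55 (limma adjusted p = 0.153). All 6 KO arrays were on a slide of their own, as were all 6 WT arrays, so slide and genotype cannot be told apart, whereas IRI and sham were compared within a slide. WT IRI replicate 1 deviated most from its group, with a root mean square deviation of 0.578 over all genes against 0.205 to 0.432 on the other arrays. The 10 proximal tubule markers looked at were all above background on the 3 arrays of every group.

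Stab2, a large scavenger receptor of sinusoidal endothelium that binds phosphatidylserine and hyaluronan, had the largest change of the 8 measured genes in both genotypes. Its levels were -0.97, -0.85 and -1.32 in KO IRI kidneys, against 1.39, 1.25 and 1.28 in KO sham kidneys. They were -0.70, -0.46 and -2.02 in WT IRI kidneys, against 0.98, 1.09 and 1.19 in WT sham kidneys. Every IRI array lay below every sham array, and WT IRI replicate 3 lay lowest of all. Stab2 fell by 2.36 ± 0.33 on the log2 scale in KO kidneys, which is 5.13-fold lower (SE, n = 3 each, limma adjusted p = 0.00514). It fell by 2.15 ± 0.33 in WT kidneys, which is 4.43-fold lower (SE, n = 3 each, limma adjusted p = 0.00573). In a piece of kidney, fewer cells of a type and less RNA per cell cannot be told apart.

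Of 5 Stab2 probes, 4 passed the filter, and they let the fall be read at different places of the gene. They are numbered 1 to 4 here, with mm9 positions on the minus strand of chromosome 10 from the files. Probe 1, used for the gene, is at chr10:86303982-86304041 and probe 2 at chr10:86304198-86304257, while probes 3 and 4 lie further upstream at chr10:86381487-86381546 and chr10:86346171-86346230. Whether each lies in an exon or a UTR was not annotated in the sources used here. Probes 1 and 2 are assigned to the same RefSeq transcript, and probes 3 and 4 each to a different transcript record. The first 30 bases of each 60-base probe are shown, since each reports on its own stretch of sequence.
Stab2 probe 1: taagcaccaaaggcaaggcttcatcccata
Stab2 probe 2: catttgttttaaagtatgataactcagaag
Stab2 probe 3: ggcctctgtcatatgtgacctcacatacat
Stab2 probe 4: tgagtcaactaacaagccttaggattttgt

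Probe 2 had levels of -1.73, -1.45 and -1.71 in KO IRI, against 0.51, 0.11 and 0.31 in KO sham kidneys. It had -1.43, -1.30 and -2.56 in WT IRI, against 0.04, -0.09 and 0.13 in WT sham kidneys. Again no IRI array reached the sham arrays. In a fit over all probes, probe 2 fell by 1.94 ± 0.28 in KO kidneys (limma adjusted p = 0.00614) and by 1.80 ± 0.28 in WT kidneys (limma adjusted p = 0.0069; SE, n = 3 each). Probes 3 and 4 were dim, being well above background on 11 and 10 of the 12 arrays. Probe 3 differed by -0.49 ± 0.22 in KO and -0.38 ± 0.22 in WT kidneys, and probe 4 by -1.44 ± 0.61 in KO and -1.57 ± 0.61 in WT kidneys (SE, n = 3 each), and none of these passed. Thus all 4 probes were lower after IRI in means in both genotypes, and the test was passed by those furthest downstream. Since probes 3 and 4 were both dim and assigned to other transcript records, position cannot be told apart from these. A further Stab2 probe was above background on 1 array and was not tested.

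**Figure D1:**
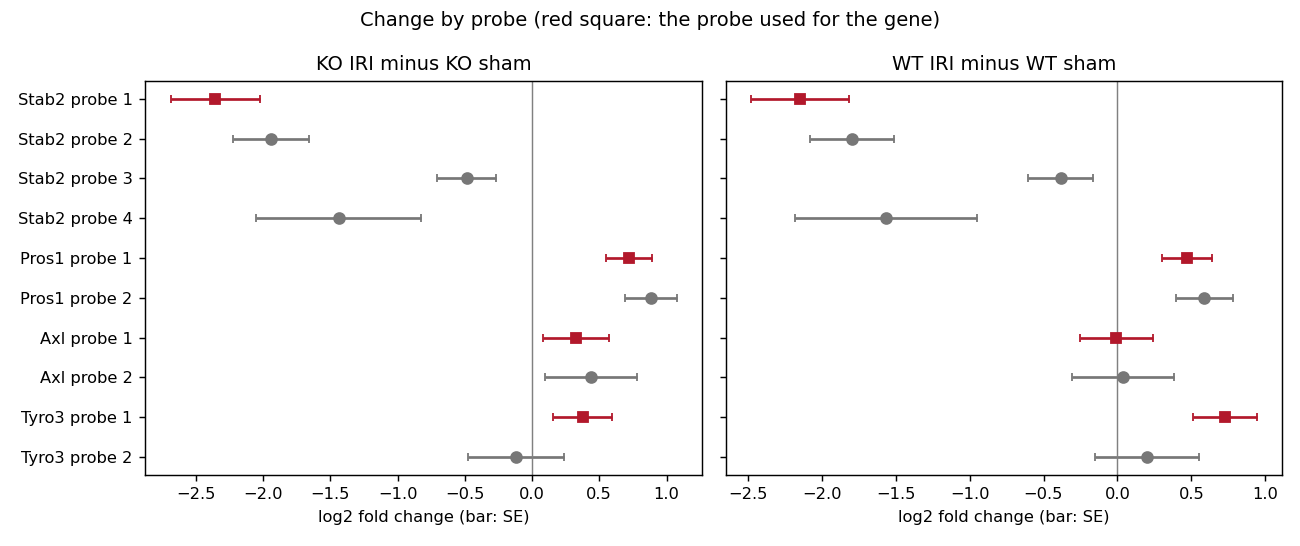
Each point is the log2 fold change of a probe, with its standard error, for KO IRI minus KO sham on the left and WT IRI minus WT sham on the right, and the red square is the probe used for the gene. Probes 1 and 2 of Stab2 lie at -2.36 and -1.94 in KO kidneys, and both Pros1 probes lie above 0 in each panel.

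Markers of endothelium were read beside Stab2. Of 11 general endothelial markers, all well above background on every array of every group, limma called 0 in KO kidneys, with 2 at an unadjusted p under 0.05. In WT kidneys 1 passed upward, Nos3, and 1 downward, Ehd3, which is enriched in glomerular endothelium and differed by -0.98 ± 0.21 (limma adjusted p = 0.017). The mean of the 11 markers, each centred on its mean over the 12 arrays, ran over 0.07 to 0.22 in KO IRI and 0.05 to 0.15 in KO sham kidneys. It ran over -0.38 to -0.04 in WT IRI and -0.13 to -0.01 in WT sham kidneys. The median change of the 11 markers was 0.12 in KO and -0.10 in WT kidneys. Of 8 markers of lymphatic and sinusoidal endothelium, 7 were measured. Lyve1, a hyaluronan receptor that sinusoidal endothelium shares with Stab2, rose by 2.32 ± 0.45 in KO kidneys (limma adjusted p = 0.0175) and by 1.88 ± 0.45 in WT kidneys (limma adjusted p = 0.0266; SE, n = 3 each). Lyve1 was above background on 2 of 3 KO sham arrays, so its size in KO kidneys rests in part on signals near background. Ccl21a, a chemokine of lymphatic vessels, fell by 1.09 ± 0.30 in WT kidneys (limma adjusted p = 0.0427). Ccl21a differed by -0.60 ± 0.30 in KO kidneys (limma adjusted p = 0.287), and Prox1, a transcription factor of lymphatic endothelium, by -0.96 ± 0.34 (limma adjusted p = 0.136), with every KO IRI array below every KO sham array. The median change of the 7 markers was 0.33 in KO and 0.31 in WT kidneys. Some tubule markers fell beside Stab2. Of 10 proximal tubule markers 6 passed downward in KO and 4 in WT kidneys, with median changes of -0.79 and -0.51. Of 10 markers of the thick limb, distal tubule and collecting duct 3 passed downward in each, with medians of -0.59 and -0.62. Of those that passed, Pvalb fell most, with a size near that of Stab2. It differed by -2.64 ± 0.45 in KO (limma adjusted p = 0.0108) and by -2.02 ± 0.45 in WT kidneys (limma adjusted p = 0.0208; SE, n = 3 each). Of all genes 4.06% passed downward in KO and 5.92% in WT kidneys. No tubule marker passed upward, though Aqp2 was higher in means, by 0.645 in KO and 0.718 in WT kidneys. The part of these marker changes in the Stab2 result was not tested.

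**Figure D2:**
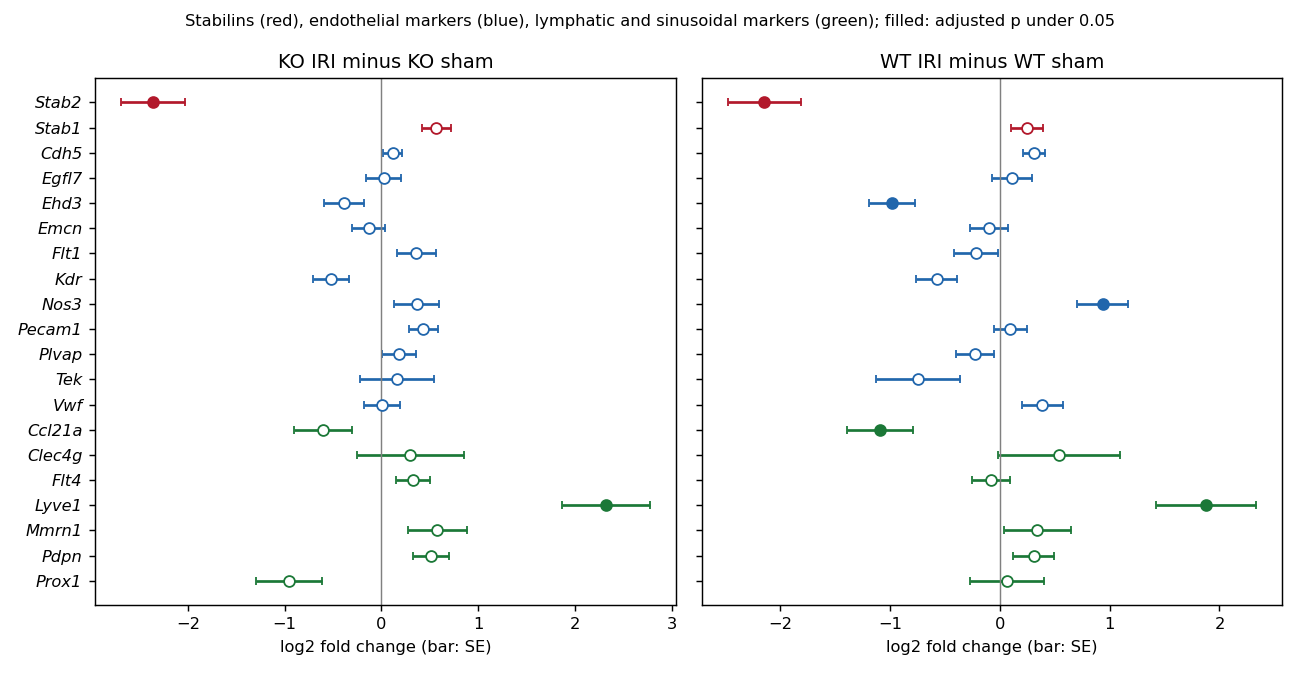
Points are log2 fold changes with standard errors for the stabilins in red, 11 endothelial markers in blue and 7 lymphatic and sinusoidal markers in green, filled where the adjusted p is under 0.05. Stab2 lies at -2.36 in KO and -2.15 in WT kidneys, left of every marker shown, Lyve1 lies at 2.32 and 1.88, and Ccl21a at -0.60 and -1.09.

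Stab1, the other stabilin, is found on sinusoidal endothelium and on some macrophages, and was brighter after IRI in means. It had levels of 1.40, 1.17 and 1.5 in KO IRI, against 0.68, 0.95 and 0.73 in KO sham kidneys. It had 1.08, 1.51 and 1.34 in WT IRI, against 0.96, 1.04 and 1.19 in WT sham kidneys. The KO groups did not overlap and the WT groups did. The difference was 0.57 ± 0.15 in KO (limma adjusted p = 0.0508) and 0.25 ± 0.15 in WT kidneys (limma adjusted p = 0.30; SE, n = 3 each), so neither passed. The KO difference did pass in 7 of 24 alternative fits, among them those that left out WT IRI replicate 1 or WT IRI replicate 2, with limma adjusted p of 0.0204 and 0.0421. The change of Stab1 is thus of the opposite sign to that of Stab2, in means, in both genotypes.

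Among the bridging proteins, Pros1 rose after IRI in KO kidneys and Mfge8 in WT kidneys. Pros1, also known as the anticoagulant protein S, had levels of 2.94, 3.08 and 3.32 in KO IRI, against 2.33, 2.37 and 2.48 in KO sham kidneys. In WT kidneys it had 3.45, 3.10 and 3.12 after IRI, against 2.50, 2.72 and 3.05 after sham operation. In both genotypes every IRI array lay above every sham array, though WT sham replicate 3 came within a small distance of the WT IRI arrays. Pros1 rose by 0.72 ± 0.17 in KO kidneys, a 1.65-fold change (SE, n = 3 each, limma adjusted p = 0.033). In WT kidneys it was higher by 0.47 ± 0.17 and did not pass (SE, n = 3 each, limma adjusted p = 0.0959). The 2 responses were not shown to differ, since the interaction was 0.25 ± 0.24 with a 95% interval of -0.27 to 0.78 (limma adjusted p = 0.725).

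Pros1 has 3 probes. Probe 1, used for the gene, is at chr16:62929001-62929060 and probe 2 at chr16:62927997-62928056, both on the plus strand in mm9. Their first 30 bases are shown because both carry the rise.
Pros1 probe 1: atatttgatgatagtgcattgcaagtggct
Pros1 probe 2: ggaagatccagaagaatttttagactctgt

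Probe 2 of Pros1 had levels of -0.73, -0.64 and -0.23 in KO IRI, against -1.44, -1.49 and -1.32 in KO sham kidneys. It had 0.11, -0.40 and -0.32 in WT IRI, against -1.0, -0.87 and -0.51 in WT sham kidneys. The order of the groups was that of probe 1. In the fit over all probes it rose by 0.88 ± 0.19 in KO kidneys (limma adjusted p = 0.0286) and differed by 0.59 ± 0.19 in WT kidneys (limma adjusted p = 0.0781; SE, n = 3 each). The third probe, for another transcript, was above background on none of the 12 arrays. The call for probe 1 in KO kidneys was lost without any one of KO sham replicates 1, 2 and 3, KO IRI replicates 2 and 3 and WT sham replicate 2, with changes of 0.62 to 0.77 and limma adjusted p of 0.0552 to 0.114. In WT kidneys the difference passed once WT sham replicate 3 was left out, at 0.62 (limma adjusted p = 0.0483).

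Mfge8, a secreted protein that joins phosphatidylserine to integrins, had levels of 5.04, 5.24 and 5.30 in KO IRI, against 4.85, 5.00 and 5.14 in KO sham kidneys. It had 5.16, 5.34 and 5.51 in WT IRI, against 4.72, 4.96 and 4.76 in WT sham kidneys. The groups overlapped in KO kidneys and were apart in WT kidneys. Mfge8 rose by 0.52 ± 0.14 in WT kidneys, a 1.44-fold change (SE, n = 3 each, limma adjusted p = 0.0358). In KO kidneys the difference was 0.20 ± 0.14 (SE, n = 3 each, limma adjusted p = 0.453). The interaction was -0.32 ± 0.20 with a 95% interval of -0.76 to 0.11 (limma adjusted p = 0.59), so the 2 responses were not shown to differ. The WT call was lost without any one of WT sham replicates 1, 2 and 3, WT IRI replicates 2 and 3, KO sham replicates 2 and 3 and KO IRI replicate 2, with changes of 0.44 to 0.60 and limma adjusted p of 0.0507 to 0.128.

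Gas6, the ligand that binds all 3 TAM receptors, had levels of 5.72, 5.66 and 5.84 in KO IRI, against 5.90, 6.06 and 5.77 in KO sham kidneys. It had 4.98, 5.86 and 5.62 in WT IRI, against 5.79, 5.95 and 6.18 in WT sham kidneys. The groups overlapped in both genotypes, and WT IRI replicate 1 was the lowest array. The difference was -0.17 ± 0.21 in KO (limma adjusted p = 0.702) and -0.49 ± 0.21 in WT kidneys (limma adjusted p = 0.154; SE, n = 3 each). The WT difference passed without WT IRI replicate 2, at -0.67 (limma adjusted p = 0.0477).

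**Figure D3:**
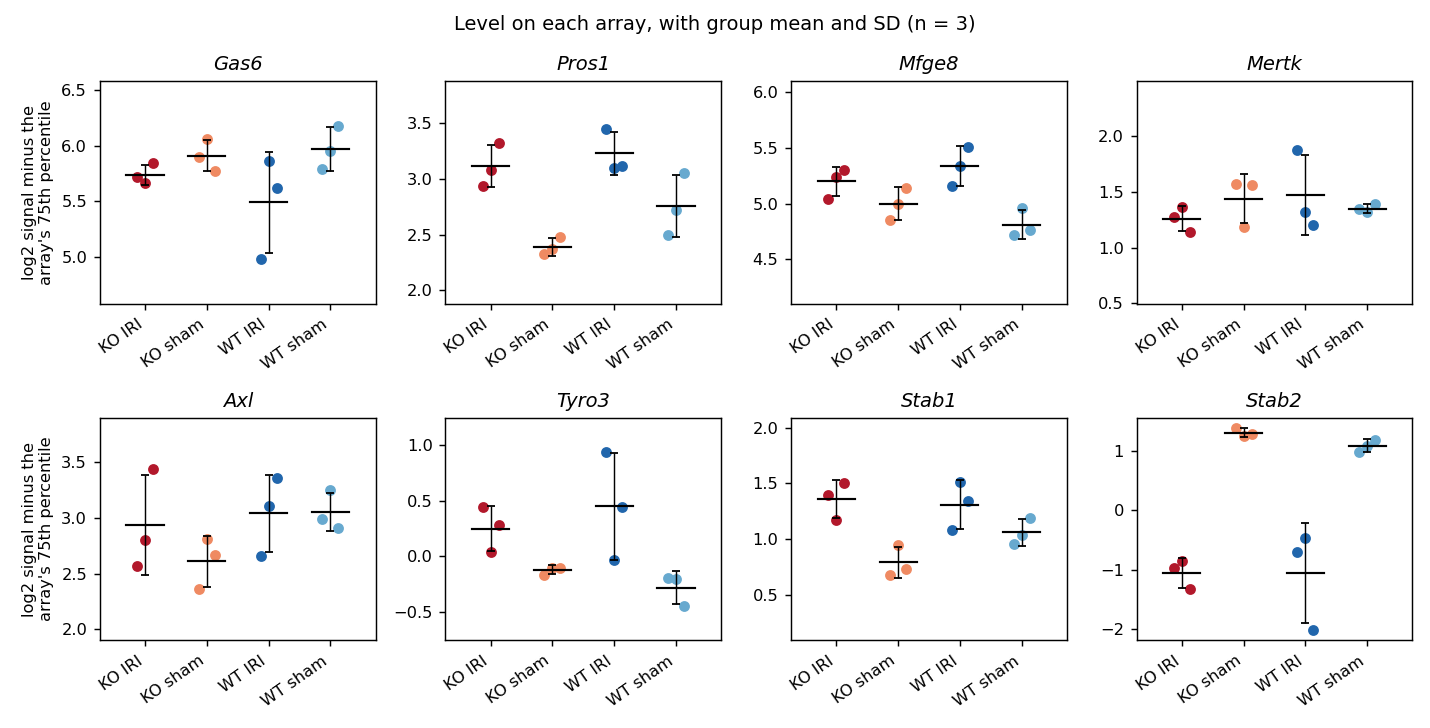
Each panel shows the log2 signal minus the array's 75th percentile for 1 gene on each array, by group, with the group mean as a line and the SD as a bar (n = 3), on an axis spanning at least 2 log2 units. The IRI arrays of Stab2 lie between -2.02 and -0.46 and its sham arrays between 0.98 and 1.39, while the groups of Mertk and Axl overlap after IRI and sham operation in each genotype.

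None of the 3 TAM receptors passed in either genotype. Mertk, which macrophages use to take up dead cells, had levels of 1.27, 1.36 and 1.14 in KO IRI and 1.57, 1.18 and 1.56 in KO sham kidneys. It had 1.88, 1.32 and 1.2 in WT IRI and 1.35, 1.32 and 1.39 in WT sham kidneys. The groups overlapped in both genotypes, with WT IRI replicate 1 the highest array. The Mertk difference was -0.18 ± 0.18 in KO (limma adjusted p = 0.628) and 0.11 ± 0.18 in WT kidneys (limma adjusted p = 0.731; SE, n = 3 each). The 95% intervals, -0.58 to 0.22 in KO and -0.29 to 0.51 in WT kidneys, leave out a 2-fold change in either direction.

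Axl, a TAM receptor that is bound by Gas6, had levels of 2.57, 2.80 and 3.44 in KO IRI and 2.36, 2.81 and 2.67 in KO sham kidneys. It had 2.66, 3.11 and 3.36 in WT IRI and 2.99, 3.25 and 2.91 in WT sham kidneys. The IRI arrays spread more widely than the sham arrays and overlapped them. The Axl difference was 0.33 ± 0.25 in KO (limma adjusted p = 0.499) and -0.01 ± 0.25 in WT kidneys (limma adjusted p = 0.99; SE, n = 3 each). A second Axl probe differed by 0.44 ± 0.34 in KO and 0.04 ± 0.34 in WT kidneys, and passed in neither.

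Tyro3, the TAM receptor best known from the nervous system, had levels of 0.44, 0.04 and 0.28 in KO IRI, against -0.17, -0.10 and -0.10 in KO sham kidneys. It had 0.94, -0.03 and 0.44 in WT IRI, against -0.19, -0.20 and -0.45 in WT sham kidneys. Every IRI array lay above every sham array of its genotype, with WT IRI replicate 1 the highest. The Tyro3 difference was 0.73 ± 0.22 in WT (limma adjusted p = 0.0538) and 0.38 ± 0.22 in KO kidneys (limma adjusted p = 0.354; SE, n = 3 each). The WT difference passed in 5 of 24 alternative fits. One was without WT IRI replicate 2, at 0.97 (limma adjusted p = 0.00959), and the others changed the background correction, the filter on dim probes, the variance prior or the array weights. A dim second Tyro3 probe, above background on 9 arrays, differed by 0.20 ± 0.35 in WT and -0.12 ± 0.35 in KO kidneys and does not show the same pattern.

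Timd4, a phosphatidylserine receptor of resident macrophages, has 1 probe, at chr11:46657173-46657232 (mm9), and Megf10, a receptor known from astrocytes, has 2. None of these probes was well above background on any of the 12 arrays. No change is given for them. Megf10 and Timd4 RNA was thus not detectable in any group with these probes.

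Counted over the 8 measured genes, 2 passed in KO IRI against KO sham, with Pros1 higher and Stab2 lower, where 6.16% of all genes passed. In WT IRI against WT sham 2 passed, with Mfge8 higher and Stab2 lower, where 12.0% of all genes passed. In each of these comparisons 4 of the 8 genes had IRI and sham arrays that did not overlap, as had 35.7% of all genes in KO and 32.3% in WT kidneys. The median change of the 8 genes was 0.26 in KO and 0.18 in WT kidneys, beside -0.08 and -0.01 for all genes. With 8 genes, 2 calls are few to set against either share.

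**Figure D4:**
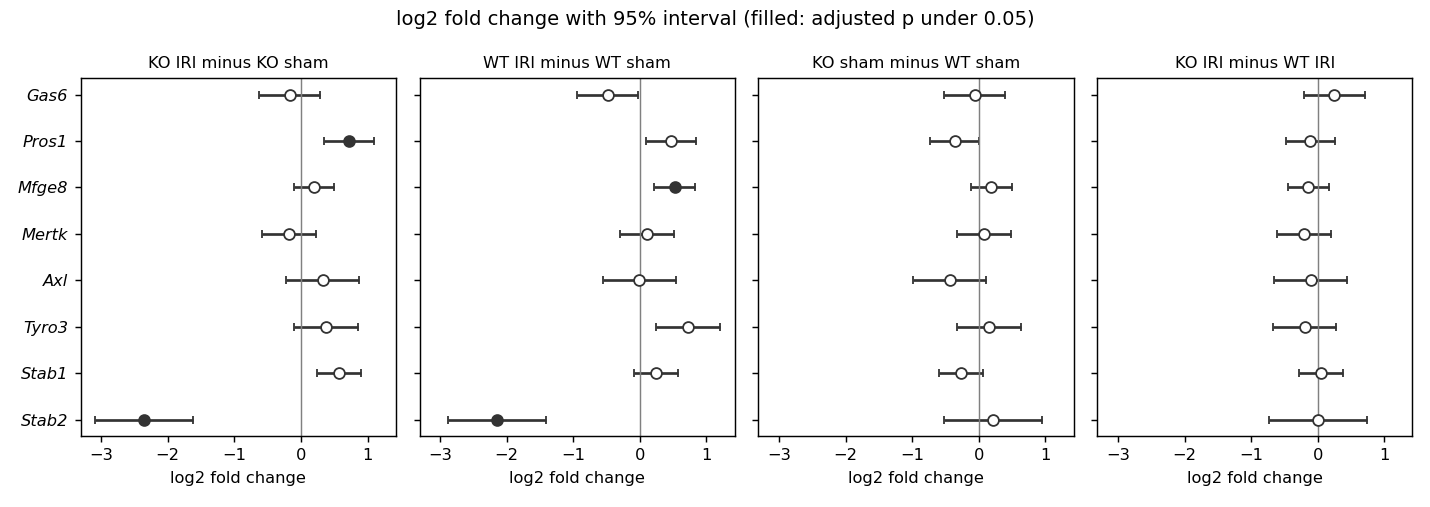
Points are log2 fold changes of the 8 measured genes with 95% intervals from the fit, for 4 comparisons named above the panels, and are filled where the adjusted p is under 0.05. Stab2 and Pros1 are filled in KO and Stab2 and Mfge8 in WT kidneys for IRI minus sham, and no point is filled in either comparison of KO with WT.

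KO kidneys were not shown to differ from WT kidneys in any of the 8 genes. In KO sham against WT sham limma called 0 of 8, and 0 had an unadjusted p under 0.05, where 8.85% of all genes passed. The arrays did not overlap for 5 of the 8, as for 42.7% of all genes. Of these, Axl differed by -0.44 ± 0.25 (limma adjusted p = 0.314) and Pros1 by -0.36 ± 0.17 (limma adjusted p = 0.216; SE, n = 3 each), with the lower levels in KO. Stab1 differed by -0.27 ± 0.15, Stab2 by 0.22 ± 0.33 and Tyro3 by 0.15 ± 0.22. The median of all genes in this comparison was 0.13, which is of the size of the last differences. In KO IRI against WT IRI limma called 0 of 8, and 0 had an unadjusted p under 0.05, where 1.93% of all genes passed. The groups overlapped for all 8, where 21.8% of all genes did not overlap, and differences ran over -0.21 for Mertk to 0.25 for Gas6. Stab2 differed by 0.01 ± 0.33, with a 95% interval of -0.73 to 0.75.

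The IRI response of KO kidneys was not shown to differ from that of WT kidneys in these genes. For the interaction limma called 0 of 8, 0 had an unadjusted p under 0.05, and 0.0694% of all genes passed. That of Stab2 was -0.21 ± 0.47, with a 95% interval of -1.25 to 0.83 (limma adjusted p = 0.891). That of Tyro3 was -0.35 ± 0.31 (limma adjusted p = 0.701) and that of Stab1 0.32 ± 0.21 (limma adjusted p = 0.618). These intervals are wide beside most of the responses.

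The 3 genes that passed in some comparison were also looked at in their upstream sequence, since Stab2 moved down and Pros1 and Mfge8 up. RefSeq promoters on GRCm38.p6 were matched for 9 of the 10 genes. The 250 bases before each start are printed, with matches to the GC box (GGGCGG, either strand) in capitals, where 2 matches may overlap.
Stab2 (chr10:87007943-87008192, minus strand): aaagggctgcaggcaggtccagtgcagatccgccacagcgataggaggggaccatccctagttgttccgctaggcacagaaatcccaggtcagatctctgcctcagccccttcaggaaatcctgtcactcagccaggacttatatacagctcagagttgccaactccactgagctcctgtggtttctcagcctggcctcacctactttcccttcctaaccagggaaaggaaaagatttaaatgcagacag
Pros1 (chr16:62854057-62854306, plus strand): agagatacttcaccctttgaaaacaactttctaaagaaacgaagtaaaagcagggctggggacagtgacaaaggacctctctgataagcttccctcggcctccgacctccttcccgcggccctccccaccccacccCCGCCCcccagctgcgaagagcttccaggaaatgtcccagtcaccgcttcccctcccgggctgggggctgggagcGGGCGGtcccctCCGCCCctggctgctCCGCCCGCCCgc
Mfge8 (chr7:79149061-79149310, minus strand): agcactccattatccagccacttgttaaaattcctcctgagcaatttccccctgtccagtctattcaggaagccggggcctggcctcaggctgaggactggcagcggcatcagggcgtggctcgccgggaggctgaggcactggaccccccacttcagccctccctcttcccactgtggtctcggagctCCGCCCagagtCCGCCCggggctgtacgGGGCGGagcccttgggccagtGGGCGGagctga

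The Stab2 window holds 3 CpG and no GC box, with 53.2% G and C. The Pros1 window holds 15 CpG and 5 GC boxes, with 64.4% G and C, and the Mfge8 window holds 12 CpG and 4 GC boxes, with 65.2%. The median of 32851 windows in the same table is 6 CpG, and 32.7% of them hold a GC box. No window of the 3 holds the TATA letters TATAAA on either strand, which 12.4% of all windows hold. These are descriptions of letters, not of bound factors.

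By Pearson r over the 12 arrays, which include the difference between IRI and sham arrays and the slides, the genes most like Stab2 were Art3 at 0.981 and Iyd and Pvalb, both at 0.979. Pvalb encodes parvalbumin, a marker of the distal convoluted tubule, and its fall after IRI is given above. The genes most like Pros1 were Cep85 at 0.964, Serpina3n at 0.954 and Pnp2 at 0.949. Those most like Mfge8 were Cav3 at 0.957, Fkbp10 at 0.936 and Hsd3b7 at 0.917. For the other measured genes the 3 closest had r of 0.907 to 0.961. Among them were Acot3, Osgep and Cr2 for Gas6, Zfr, Cwc15 and Klhdc3 for Mertk, Dclk1, Efemp2 and Myef2 for Axl, Mmd and Gclc for Tyro3, and Traf2, Htr3a and Msr1 for Stab1. Each was picked as the highest of the values of r over all genes, so a high r is no finding.

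The rest of the clearance pathway was read from 8 lists with 85 genes, of which 84 were measured. The lists were chosen with earlier results of these data known, so their shares here and below are descriptions only. In KO IRI against KO sham 7 rose and 3 fell, which is 11.9% of the lists beside 6.16% of all genes. In WT IRI against WT sham 13 rose and 8 fell, which is 25% beside 12.0% of all genes. Neutrophil markers moved beside these counts, since 2 of 9 rose in KO and 6 of 9 in WT kidneys. Their centred mean ran over -0.65 to 0.53 in KO IRI, -2.01 to -0.92 in KO sham, 1.85 to 2.35 in WT IRI and -0.89 to 0.43 in WT sham kidneys, and its part in the counts was not tested. The median change was 0.04 in KO and 0.01 in WT kidneys, near the medians of all genes. Of the 10 calls in KO kidneys 4 held in all 24 alternative fits, and of the 21 in WT kidneys 1 did, that of Lgals3. Leaving out some single array ended 6 of the calls in KO and 16 of those in WT kidneys.

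Among 8 measured genes listed as further phosphatidylserine receptors or their relatives, 1 rose in each genotype and none fell. This was Havcr1, the injury marker with which tubule cells take up dead cells. It had levels of -2.27, -0.70 and 2.92 in KO IRI, against -4.56, -4.79 and -4.33 in KO sham kidneys. It had 2.01, 4.16 and 3.78 in WT IRI, against -1.91, -2.38 and 0.04 in WT sham kidneys. The groups did not overlap, but the KO IRI arrays were far apart. Havcr1 rose by 4.54 ± 1.15 in KO (limma adjusted p = 0.0457) and by 4.73 ± 1.15 in WT kidneys (limma adjusted p = 0.0272; SE, n = 3 each). The call held in 12 of 24 alternative fits in KO and in 19 of 24 in WT kidneys, and leaving out single arrays ended it in most of the others.

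Of 21 integrins, scavenger receptors and further opsonins, 3 rose and 1 fell in KO kidneys, and 6 rose and 3 fell in WT kidneys. Lgals3, a lectin that can serve as a ligand of Mertk, rose by 1.01 ± 0.16 in KO (limma adjusted p = 0.00685) and by 1.53 ± 0.16 in WT kidneys (limma adjusted p = 0.00102; SE, n = 3 each). In KO kidneys Apoh, which binds phosphatidylserine, rose by 1.95 ± 0.20 (limma adjusted p = 0.00167). Its level was low in KO sham kidneys, at 0.30 ± 0.10, against 2.25 ± 0.33 in KO IRI kidneys. In WT kidneys it was 2.20 ± 0.27 after IRI and 2.05 ± 0.23 after sham operation (SD, n = 3 each). The scavenger receptor Msr1, above background on 0 of 3 KO sham arrays, was at least 2.58-fold higher in KO IRI kidneys in the main processing (limma adjusted p = 0.0171). The call held in 20 of 24 alternative fits, where the log2 change ran over 0.26 to 2.19, so the bound depends on the processing. In WT kidneys the lipopolysaccharide receptor Cd14 rose by 2.91 ± 0.80 (limma adjusted p = 0.0423), a call that held in 13 of 24 alternative fits. Ptx3, above background on 0 of 3 WT sham arrays, was at least 2.66-fold higher in the main processing (limma adjusted p = 0.00725). The log2 change of Ptx3 ran over 0.52 to 3.19 in the alternative fits, so this bound depends on the processing too. Cd14 was highest on WT IRI replicate 1, at 6.24, against 2.62 and 3.35 on the other WT IRI arrays.

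Edil3, a secreted relative of Mfge8 that also joins phosphatidylserine to integrins, fell by 1.64 ± 0.40 in KO (limma adjusted p = 0.0386) and by 1.78 ± 0.40 in WT kidneys (limma adjusted p = 0.0204; SE, n = 3 each). It was above background on 1 of 3 WT IRI arrays, so the size in WT kidneys rests on signals near background, and it ran over -2.11 to -0.33 in the alternative fits. In KO kidneys it ran over -1.86 to -0.67, and passed in 15 of 24. The Edil3 change was of the opposite sign to that of Mfge8, in means, in both genotypes. C1qc and C1qa, subunits of the complement protein that coats dying cells, fell in WT kidneys by 0.95 ± 0.20 (limma adjusted p = 0.0166) and 0.88 ± 0.25 (limma adjusted p = 0.0477). The C1qc call held in 21 of 24 alternative fits and that of C1qa in 11. Macrophage markers moved beside these genes, since 5 of 12, C1qa and C1qc among them, fell in WT and 2 of 12 in KO kidneys, and Cd68 rose in both. The mean of the 12 markers, centred as before, ran over -0.45 to 0.00 in KO IRI and -0.67 to 0.01 in KO sham kidneys. It ran over -0.11 to 0.08 in WT IRI and 0.57 to 0.70 in WT sham kidneys, and its part in these results was not tested.

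The vitamin K cycle makes Gas6 and Pros1 able to bind phosphatidylserine, by carboxylating them. Of its 4 genes, 1 rose and 1 fell in each genotype. Nqo1, a quinone reductase, rose by 1.1 ± 0.20 in KO (limma adjusted p = 0.0134) and by 1.03 ± 0.20 in WT kidneys (limma adjusted p = 0.0128; SE, n = 3 each). Ggcx, the carboxylase itself, fell by 0.58 ± 0.14 in KO kidneys (limma adjusted p = 0.0337), a call that held in 15 of 24 alternative fits. Vkorc1, which recycles vitamin K, fell by 0.96 ± 0.22 in WT kidneys (limma adjusted p = 0.0235). Ggcx differed in the same direction in means in WT kidneys, at 0.93 ± 0.20 after IRI and 1.37 ± 0.08 after sham operation (SD, n = 3 each).

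Of 8 genes that shed TAM receptors or act in their negative feedback, limma called 0 in KO kidneys (2 at an unadjusted p under 0.05), and in WT kidneys 1 rose and 1 fell. Socs3, a feedback inhibitor of cytokine signalling, rose by 3.27 ± 0.63 (limma adjusted p = 0.0129; SE, n = 3 each). Of 7 find-me signals and their receptors, Sphk1, which makes sphingosine 1-phosphate, and the nucleotide receptor P2ry2 rose in WT kidneys, by 2.29 ± 0.56 (limma adjusted p = 0.0283) and 1.09 ± 0.28 (limma adjusted p = 0.0323). The Sphk1 call held in 20 of 24 alternative fits and that of P2ry2 in 13. In KO kidneys limma called 0 of the 7, with 2 at an unadjusted p under 0.05.

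Of 10 genes of phosphatidylserine exposure and don't-eat-me signals, Atp11a, a flippase that keeps phosphatidylserine inside, fell by 1.05 ± 0.12 in KO (limma adjusted p = 0.00272) and by 0.52 ± 0.12 in WT kidneys (limma adjusted p = 0.0229; SE, n = 3 each). Cd24a, a don't-eat-me signal, rose by 0.86 ± 0.17 in WT kidneys (limma adjusted p = 0.0128). Of 13 genes of the engulfment machinery limma called 0 in KO kidneys (1 at an unadjusted p under 0.05), and the leukocyte genes Dock2 and Rac2 fell in WT kidneys by 2.11 ± 0.39 (limma adjusted p = 0.0113) and 1.82 ± 0.42 (limma adjusted p = 0.0231). Beside these, all 10 T and NK cell markers fell in WT kidneys, and their centred mean was 3.50, 3.49 and 0.73 on the WT sham arrays against -1.73 to 0.42 on all others. Its part in the Dock2 and Rac2 results was not tested. Of 13 genes of phagosome maturation and lipid handling, Ucp2, a mitochondrial carrier that lets phagocytes go on eating, rose by 2.50 ± 0.37 in KO (limma adjusted p = 0.00595) and by 2.56 ± 0.37 in WT kidneys (limma adjusted p = 0.00423; SE, n = 3 each). Abca1, a cholesterol exporter, rose by 1.46 ± 0.35 in KO kidneys (limma adjusted p = 0.0399), a call that held in 14 of 24 alternative fits.

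**Figure D5:**
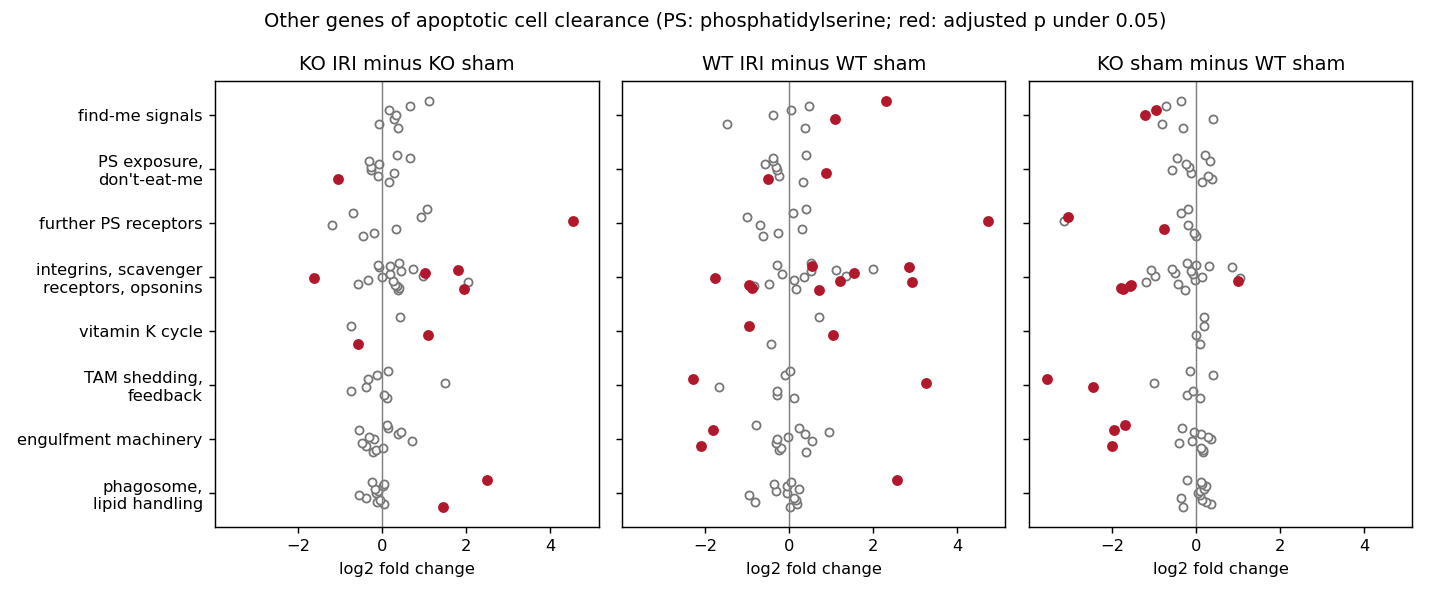
Each point is the log2 fold change of 1 of 84 genes in 8 lists, for KO IRI minus KO sham, WT IRI minus WT sham and KO sham minus WT sham, in red where the adjusted p is under 0.05. In the first panel 10 points are red, in the second 21 and in the third 14, of which 13 lie left of 0.

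Of the 84 genes in the lists, 14 differed between KO sham and WT sham kidneys, 16.7% beside 8.85% of all genes. Of these 13 were lower in KO, and 8 of the 14 calls held in all 24 alternative fits, while leaving out some single array ended the other 6. Havcr2, a phosphatidylserine receptor of leukocytes also called TIM-3, differed by -3.05 ± 0.29 (limma adjusted p = 0.00182; SE, n = 3 each). C1qa, at -1.78 ± 0.25 (limma adjusted p = 0.00446), C1qb, at -1.59 ± 0.26 (limma adjusted p = 0.00732), Apoh, at -1.76 ± 0.20 (limma adjusted p = 0.00255), and the engulfment genes Dock2, at -2.01 ± 0.39, Rac2, at -1.97 ± 0.42, and Vav1, at -1.70 ± 0.23 (limma adjusted p = 0.0138, 0.0204 and 0.00409), were also lower in KO. P2ry6, at -1.23 ± 0.20 (limma adjusted p = 0.00718), Panx1, at -0.96 ± 0.21 (limma adjusted p = 0.024), and Cd300a, at -0.78 ± 0.20 (limma adjusted p = 0.0365), were lower too, and so was Socs1, at -2.45 ± 0.66 (limma adjusted p = 0.0452), whose call held in 10 of 24 alternative fits. That of Cd300a held in 13 of 24. Cd36, a scavenger receptor that also takes up fatty acids, was the exception and was higher in KO, at 1.00 ± 0.21 (limma adjusted p = 0.0205). Of 8 adipocyte markers limma called 0 in this comparison (3 at an unadjusted p under 0.05), with a median difference of 1.52. Of the T and NK cell markers 7 of 10 were lower in KO sham kidneys. Of the macrophage markers 5 of 12 were lower. Among these were C1qa, C1qb and C1qc, which the lists hold too, so the 2 counts share genes. The part of these markers was not tested, and slide cannot be told apart from genotype here. In KO IRI against WT IRI kidneys 2 of the 84 passed, 2.38% beside 1.93% of all genes. These were Timd2, a relative of Havcr1, at -1.17 ± 0.22 (limma adjusted p = 0.0321), and Lgals3, at -1.04 ± 0.16 (limma adjusted p = 0.0128), both lower in KO. The Timd2 call held in 15 of 24 alternative fits and that of Lgals3 in 22, and leaving out some single array ended each. Beside Timd2 and Lgals3, 2 of 9 neutrophil markers were lower in KO IRI than in WT IRI kidneys, and the part of these markers was not tested. For the interaction limma called 0 of the 84, where 0.0694% of all genes passed. At an unadjusted p under 0.05 there were 18 of the 84. The share of all genes at that unadjusted p was not taken, so the 18 cannot be read as an excess.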

How the data were processed

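Per the file headers, the deposited scanner files hold an intensity per spot, from Agilent's Feature Extraction software (10.7.1.1), background-corrected within the array and not scaled between arrays, with probe positions on mm9. The authors' deposited log2 values served as an alternative, and the submitters' processing notes name limma with no version. Of 62976 spots per array 59305 are not controls, for 56605 probes. Control and outlier spots were left out, spots of a probe averaged, and log2 intensities reduced by the array's 75th percentile. A probe was kept if well above background on at least 3 of 12 arrays, and a gene took its kept probe with the highest mean. Symbols came from RefSeq (GRCm38.p6) by accession for 33903 probes, and 22702 kept the files' names. Between 62.9% and 68.1% of probes were above background per array and none was saturated, and 3 arrays per group limit the precision.

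Group means were fitted in R 4.3.3 with limma 3.58.1, two-sided, and the fit was tested on simulated data. The text names all 10 genes, up to 3 genes per pathway list, direction and comparison, the 3 most alike genes per measured gene, and Jaml; marker genes were named after their values were seen. Some genes that this rule takes are not reported here. The genes and lists were chosen with earlier results of these data known. Alternatives covered normalization, background, filter, probe choice, test, array weights, blocks and single arrays left out.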

Additional observations from a re-analysis of the deposited data

How the results depend on the processing

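Up to 24 alternatives were run per result, and no called change turned its sign. Stab2 passed in all 24 in KO kidneys, with changes of -2.46 to -1.56, and in 23 of 24 in WT kidneys, with -3.04 to -1.47, failing with only the WT arrays in the fit (limma adjusted p = 0.0653). Pros1 in KO kidneys passed in 16 and Mfge8 in WT kidneys in 12 of 24. For WT IRI against WT sham, where 2 genes passed, array weights gave 6, no filter on dim probes, quantile normalization and the authors' values each gave 1, only the WT arrays gave 0, and leaving out each array in turn gave 1 to 3. For KO IRI against KO sham, also 2, array weights gave 5, no filter 1, and leaving out each array 1 to 3. Normexp background correction, the filter on all 3 arrays of a group and the trend and robust prior each gave 3 in both comparisons, adding Tyro3 in WT and Stab1 in KO kidneys. Array weights also gave 4 in place of 0 for KO sham against WT sham, and 1 in place of 0 for KO IRI against WT IRI (Stab2) and for the interaction (Mfge8). The weight estimation stopped before converging, with weights of 0.0778 to 25.5, and the cause of the other changes was not tested. Leaving out WT IRI replicate 1 and WT sham replicate 3 together, chosen after seeing the data, gave 2 in WT and 3 in KO kidneys. With the replicate number as a block, KO IRI against KO sham gave 1, WT IRI against WT sham 2 and the other comparisons 0. The numbers do not pair the samples, since only 4 of 18 same-numbered pairs had a correlation of deviations above 0.1 (range -0.268 to 0.151). Slide as a block was not run, since it coincides with genotype and leaves the comparisons within a genotype as they are. Timd4, Megf10 and the dim probes of Stab2 and Tyro3 are limited by signal over background.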
